A study of Homo sapiens with 6 samples.

Results

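The 38 genes described here are components and target genes of the Wnt pathway, chosen by symbol: the destruction complex, receptors, Dishevelled proteins, transcription factors, ligand handling and a few targets. They were found by their symbols in a table of transcript counts from HCT116 cells, where they are 38 of 40173 genes and 327 of 151453 transcripts that carry a gene. HCT116 is a human colon cancer line with a mutation in CTNNB1, the gene for β-catenin. Cells of both groups had been transduced with a lentivirus and selected with puromycin into stable lines, 1 group with a control virus (MOCK) and the other with a virus carrying the coding region of CYGB, cytoglobin, fused with FLAG (CYGB). Each group had 3 libraries of total RNA, and nothing says whether these came from separate cultures, so that p-values measure only the spread between these libraries, which may be technical. The comparison asks whether RNA of the Wnt pathway differed between CYGB-overexpressing and MOCK cells.

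In the canonical Wnt pathway, a complex built on APC and AXIN proteins holds β-catenin while casein kinase 1 and GSK3 phosphorylate it, and BTRC then marks it for degradation. A Wnt ligand binds a Frizzled receptor with LRP5 or LRP6, Dishevelled proteins disable the complex, and β-catenin enters the nucleus, where it works with TCF and LEF factors. Many of the resulting targets, such as AXIN2, RNF43, ZNRF3, NKD1 and NOTUM, dampen the pathway again, and in the colon it maintains the stem cells of the crypt and is activated by mutation in most tumours.

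The libraries held between 58138393 and 66035266 counts, of which 18.6 to 19.5% lay on assembled transcripts without a gene. CYGB itself had counts of 10, 28 and 34 in MOCK against 34935, 27681 and 32333 in CYGB libraries (log2 fold change 10.35, adjusted p = 0.00226 by edgeR's quasi-likelihood test, Benjamini-Hochberg adjusted over all genes). Markers of epithelium were high, with KRT8 at 1422 to 1974 CPM (counts relative to the size of the library) and EPCAM at 159 to 341 CPM, but KRT20, VIL1 and CDH17 lay under 1 CPM in every library. CDX2 lay at 14.9 to 19.3 CPM. Of the markers of leukocytes, endothelium and fibroblasts, only COL1A1 (44.3 to 53.7 CPM) and CD68 (9.9 to 25.2 CPM) exceeded 2 CPM.

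At the level of the gene, after the transcripts of each gene had been summed, no difference in these Wnt genes passed the tests below. Of the 38 genes, 35 passed the filter on low counts, and 0 of these passed the threshold of the study's methods, an unadjusted p of at most 0.01 with a ratio of at least 2 or at most 0.5, which 0.565% of all 19987 tested genes passed (0.280% higher and 0.285% lower). With Benjamini-Hochberg adjustment over all genes, 0 of the 35 had an adjusted p under 0.05 by edgeR (0.0550% of all genes), and the lowest was 0.963. An unadjusted p under 0.05 was reached by 4 of them, all lower in CYGB libraries, against 4.54% of all genes. DESeq2 also placed 0 past the threshold (0.966% of all genes it tested) and gave 3 an unadjusted p under 0.05 (3.65% of all genes). The log2 fold changes of the 35 ran from -0.54 to 0.33, with 15 above and 20 below 0, and their median was -0.02 against -0.01 over all tested genes. In bulk RNA such as this, fewer cells with a gene's RNA and less RNA per cell cannot be told apart.

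The precision of these fold changes was high for many of the genes and low for a few. The 95% interval of the log2 fold change lay within 0.5 of 0 for 16 of the 35 and within 1 for 26, so that for these a change of 2-fold lay outside the interval. For the other 9 it reached past 1 on at least 1 side, and it was widest in APC, MYC, AXIN2 and TCF7.

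**Figure D1:**
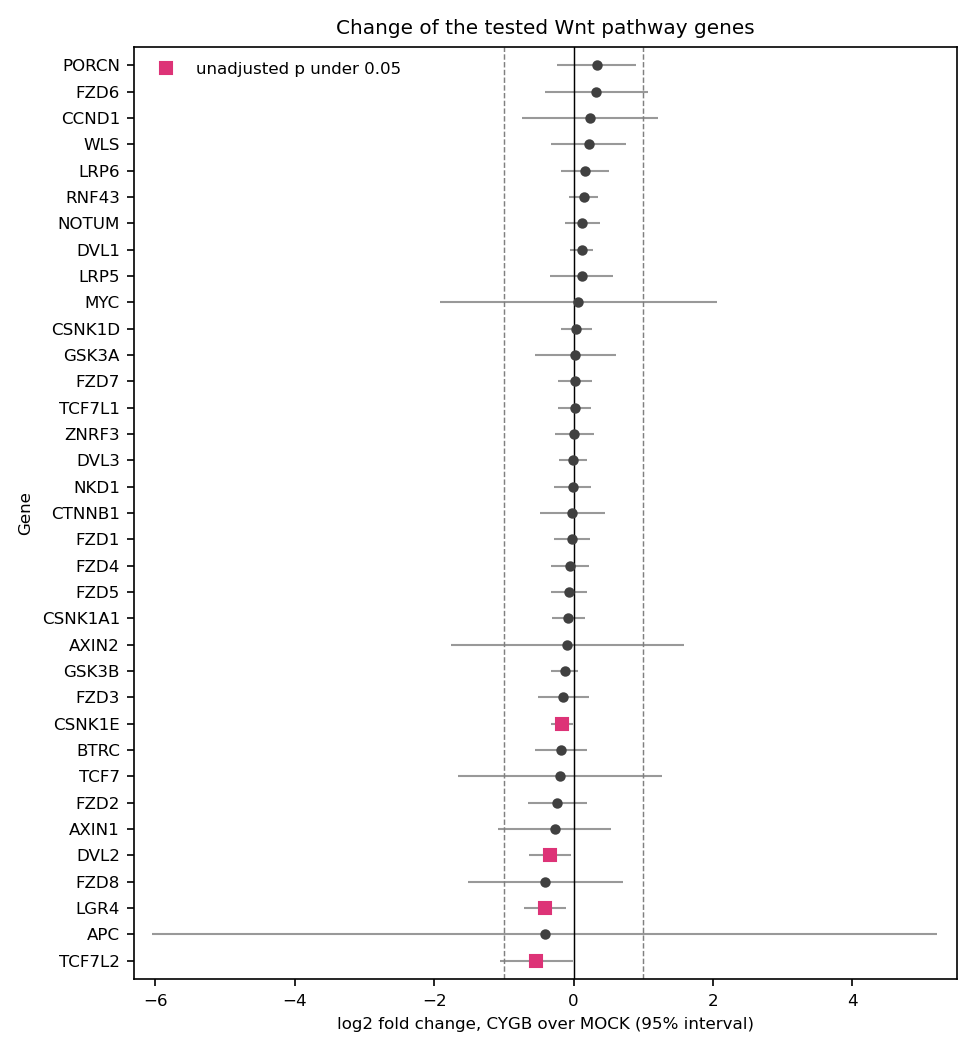
Points give the log2 fold change of CYGB over MOCK for the 35 tested genes and lines its 95% interval from edgeR (3 libraries per group). Dashed lines mark a 2-fold change, and squares the 4 genes with an unadjusted p under 0.05. All points lie between -0.54 and 0.33, and the interval of APC runs from -6.04 to 5.21.

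Levels differed far more between genes than between groups. Per length of transcript (in TPM, which corrects a count for the length of its transcript and for the size of the library), CTNNB1 was the highest of the 38 at 241 ± 43.4 TPM in MOCK and 245 ± 53.1 TPM in CYGB (SD, n = 3). CCND1, CSNK1A1, DVL1, CSNK1E and CSNK1D followed, with group means from 113 to 186 TPM. NKD1 stood at 6.32 ± 0.04 TPM in MOCK and 6.43 ± 0.98 TPM in CYGB.

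The stem cell genes LGR5 and ASCL2 and the factor LEF1 were close to 0 in every library and did not pass edgeR's filter on low counts. LGR5, a receptor for R-spondins that marks crypt stem cells, had a count of 4 in each MOCK library and of 0, 0 and 14 in the CYGB libraries. ASCL2, a transcription factor of the same cells, had counts of 4, 0 and 0 in MOCK against 0, 4 and 0 in CYGB. LEF1 had counts of 4, 4 and 0 in MOCK against 0, 4 and 8 in CYGB. With so few counts no difference was detectable at this depth. DESeq2, run without that filter, gave unadjusted p-values of 0.927 for LGR5, 0.98 for ASCL2 and 0.77 for LEF1.

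**Figure D2:**
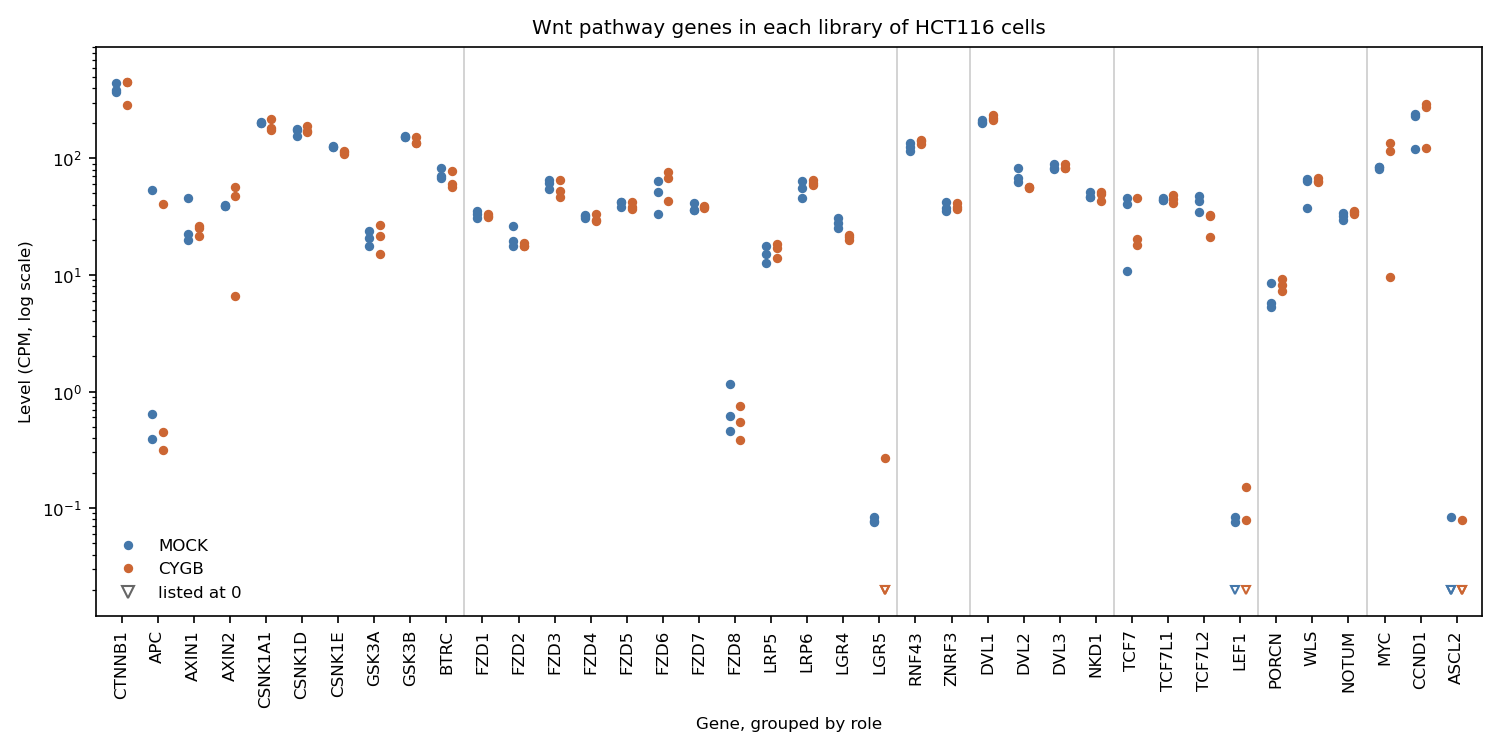
Each point is the level of 1 gene in 1 library, in CPM on a log scale, for all 38 Wnt pathway genes grouped by role (lines part the roles; blue MOCK, orange CYGB; open triangles, listed at 0). Most genes form 1 tight cluster of 6 points, while APC, AXIN2, MYC and TCF7 are spread over 4-fold or more, and LGR5, LEF1 and ASCL2 lie near 0.

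In the destruction complex, β-catenin RNA averaged 399 ± 37.0 CPM in MOCK and 395 ± 94.1 CPM in CYGB (SD, n = 3), but its transcripts were not counted alike. CTNNB1 (ENSG00000168036, plus strand of chromosome 3, GRCh38, 41194741 to 41260096) had counts of 17423, 20510 and 22663 in MOCK against 22624, 22863 and 15014 in CYGB. The groups overlapped, since CYGB replicate 3 was the lowest library and the other two CYGB libraries were among the highest. Its log2 fold change was -0.02 (standard error 0.19, 95% interval -0.48 to 0.44).

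Most of the CTNNB1 counts lay on different transcripts in different libraries. CTNNB1-202 (781 residues) held 63.5%, 56.1% and 58.3% of them in MOCK replicate 2 and CYGB replicates 1 and 2, but 11.1% in MOCK replicate 1, where CTNNB1-208 (also 781 residues) held 54.2%. CTNNB1-230, annotated with a shorter protein of 702 residues, held 61.5% in MOCK replicate 3 and 40.6% in CYGB replicate 3, against 1.59 to 13.2% in the other libraries. These shifts crossed the groups. Of all windows of 150 bases in CTNNB1-230, 0.989% occur in no other transcript of the gene, against 1.89% in CTNNB1-202 and 0% in CTNNB1-208. How reads were divided among such isoforms is not given in the sources used here, and its part in these shifts was not tested.

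APC, the scaffold that most colon tumours lose, was high in 1 library of each group and near 0 in the others. Its counts (ENSG00000134982, chromosome 5 from 112707498 to 112846239, plus strand) were 2535, 34 and 20 in MOCK and 16, 23 and 2111 in CYGB. MOCK replicate 1 and CYGB replicate 3 were thus high and the other 4 libraries low, so that the groups overlapped. In MOCK replicate 1, 96.8% of the counts lay on APC-207, and in CYGB replicate 3, 98.4% lay on APC-201; both are annotated with 2843 residues, and each had at most 1 count in any other library. The log2 fold change was -0.42 with a 95% interval of -6.04 to 5.21, and it became 4.72 without MOCK replicate 1 and -5.55 without CYGB replicate 3. Each group thus held 1 high library and low ones. Assembled transcripts without a gene were left out of these counts, and some of them had the opposite pattern, as described at the end. Whether any of them belongs to APC was not tested.

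AXIN2, the scaffold that is also a widely used target of β-catenin, was steady in MOCK and uneven in CYGB libraries. Its counts (ENSG00000168646, chromosome 17 from 65528563 to 65561647, minus strand) were 1831, 2042 and 2053 in MOCK and 2854, 337 and 2478 in CYGB. Replicates 1 and 3 of CYGB lay above all MOCK libraries and replicate 2 far below them. AXIN2-209, which held 87.6 to 93.3% of the gene's counts in the other 5 libraries, had 0 counts in CYGB replicate 2. The log2 fold change was -0.09 (95% interval -1.77 to 1.59), and 0.40 without CYGB replicate 2, where its unadjusted p was 0.0215 and its adjusted p 0.936 by edgeR's quasi-likelihood test.

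Among the kinases of the complex, CSNK1E and GSK3B were lower in every CYGB library than in any MOCK library, by a small margin. CSNK1E (casein kinase 1 epsilon, chromosome 22) had 127, 126 and 125 CPM in MOCK and 109, 114 and 115 CPM in CYGB. GSK3B (chromosome 3), which phosphorylates β-catenin for degradation, had 152, 154 and 154 CPM in MOCK and 134, 151 and 135 CPM in CYGB. The groups did not overlap in either gene, although for GSK3B the nearest libraries stood at 151.1 and 151.7 CPM. The log2 fold change was -0.16 for CSNK1E (standard error 0.07, unadjusted p = 0.0472 by edgeR) and -0.13 for GSK3B (standard error 0.08, unadjusted p = 0.14 by edgeR), and the adjusted p was 0.963 for both.

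CSNK1D, casein kinase 1 delta, was nearly constant as a gene, but 2 of its 24 transcripts passed the threshold. Over all genes 1.02% of tested transcripts did, whereas the 24 are all its transcripts, tested or not. Its summed counts (ENSG00000141551, chromosome 17 from 82239023 to 82273731, minus strand) were 8423, 8221 and 9083 in MOCK and 8577, 8474 and 9881 in CYGB, with overlap of the groups and a log2 fold change of 0.04 (95% interval -0.18 to 0.26). CSNK1D-213 was listed at 0 in all MOCK libraries and had 27, 33 and 33 counts in CYGB. Were 3 counts per library the limit of a count of 0, it would be at least 10.3-fold higher in CYGB (unadjusted p = 0.000491, adjusted p = 0.224 by edgeR's quasi-likelihood test, adjusted p = 1.01e-05 by DESeq2). That limit takes no account of how reads were divided among isoforms. CSNK1D-223, a transcript without a coding sequence, was likewise at 0 in MOCK and had 21, 10 and 18 counts in CYGB (unadjusted p = 0.00249, adjusted p = 0.452 by edgeR, adjusted p = 0.00263 by DESeq2). On the same limit it would be at least 5.4-fold higher. Both passed edgeR's filter on low counts through the CYGB libraries alone. They were rare, at 0.315 to 0.389% and 0.118 to 0.245% of the gene's counts in CYGB libraries. In CSNK1D-213 the coding sequence leaves that of CSNK1D-202 (415 residues) after 76 shared bases, and the stretch around this point shows the difference (GENCODE 29, minus strand of chromosome 17, GRCh38, 5′ to 3′; capitals mark the bases after the last shared one and begin at position 82265796 in CSNK1D-202 and at 82255577 in CSNK1D-213).
CSNK1D-202: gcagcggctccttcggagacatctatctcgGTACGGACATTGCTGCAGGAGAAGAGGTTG
CSNK1D-213: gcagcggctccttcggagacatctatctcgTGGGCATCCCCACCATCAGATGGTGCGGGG
Of the windows of 150 bases, 27.0% in CSNK1D-213 and 33.6% in CSNK1D-223 occur in no other CSNK1D transcript.

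The remaining members of the complex showed no shift beyond the spread of the libraries. CSNK1A1, the casein kinase that primes β-catenin, averaged 202 ± 3.43 CPM in MOCK and 192 ± 23.0 CPM in CYGB (SD, n = 3), and the ubiquitin ligase component BTRC 73.3 ± 7.72 and 64.7 ± 11.0 CPM. AXIN1 lay at 20.0 to 45.6 CPM in MOCK and 21.4 to 26.2 CPM in CYGB, and GSK3A at 17.8 to 23.9 and 15.1 to 26.9 CPM. Log2 fold changes of these 4 genes ran from -0.27 to 0.02, and all groups overlapped.

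Among the receptors, LGR4 was lower in every CYGB library than in any MOCK library. LGR4 (ENSG00000205213, chromosome 11 from 27365961 to 27472775, minus strand), a receptor for R-spondins that strengthens Wnt signals, had counts of 1450, 1469 and 1302 in MOCK against 1004, 1071 and 1154 in CYGB. In CPM this was 30.7, 27.8 and 25.3 against 19.9, 21.1 and 22.0, with no overlap. The log2 fold change was -0.41 (standard error 0.12, 95% interval -0.71 to -0.12), with the lowest unadjusted p of the 35 genes (0.0144 by edgeR, 0.00827 by DESeq2). Adjusted over all genes this was 0.963 by edgeR and 0.526 by DESeq2, so LGR4 passed neither. The same ligands also bind LGR5, which was near 0.

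Groups that did not overlap were seen in 6 of the 35 genes, 1 higher (DVL1) and 5 lower (LGR4, DVL2, CSNK1E, GSK3B and TCF7L2). Over all tested genes the shares were 11.0% in either direction, 5.72% higher and 5.31% lower. By either tool, adjusted p-values of the 6 genes were 0.526 or more.

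**Figure D3:**
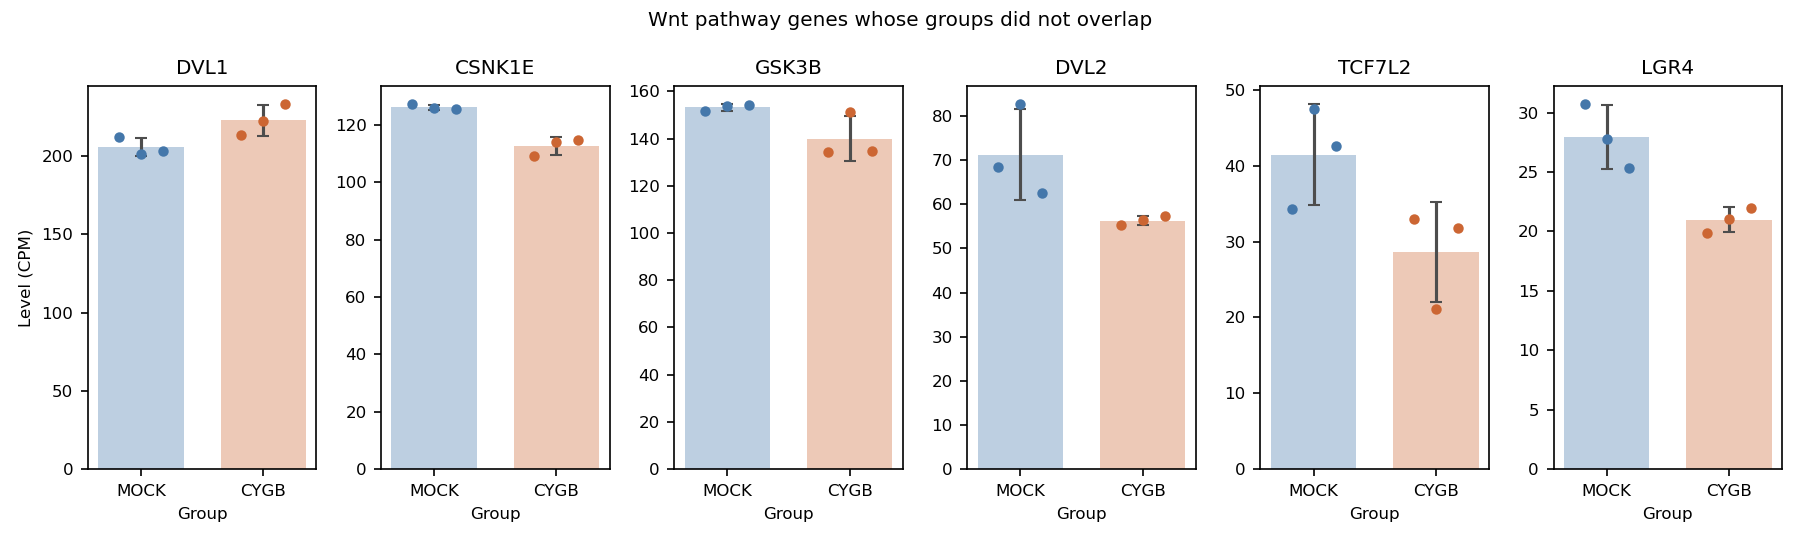
CPM of the 6 genes whose MOCK and CYGB libraries did not overlap, with each library as a point, the mean of 3 libraries as a bar and the SD as an error bar. DVL1 is higher in CYGB and the other 5 are lower, LGR4 with group means of 27.9 and 21.0 CPM.

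The Frizzled receptors, which bind the ligands, had log2 fold changes between -0.41 and 0.33, and their groups overlapped in each of the 8 genes. FZD1, FZD4, FZD5 and FZD7 each had 1 transcript in the table and differed by 1.17-fold or less between the highest and the lowest library. Their log2 fold changes were -0.03, -0.05, -0.07 and 0.02. FZD2 and FZD8 also had 1 transcript each, but their highest library exceeded the lowest by 1.49-fold and 3.06-fold. FZD2 averaged 21.2 ± 4.43 CPM in MOCK and 18.0 ± 0.539 CPM in CYGB, with MOCK replicate 1 the highest at 26.2 CPM. FZD8 was the least abundant of the tested genes, at 0.381 to 1.16 CPM. For the co-receptors, LRP5 averaged 15.1 ± 2.63 and 16.4 ± 2.31 CPM and LRP6 55.3 ± 9.23 and 61.8 ± 3.54 CPM.

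FZD6, a Frizzled linked to planar polarity, had 2 transcripts past the threshold, while its sum was not. The gene (ENSG00000164930) had counts of 2430, 1761 and 3315 in MOCK against 3853, 3430 and 2274 in CYGB, and its log2 fold change was 0.33 (95% interval -0.42 to 1.07). FZD6-206, annotated with 674 residues, had 597, 233 and 827 counts in MOCK and 0 counts in each CYGB library (unadjusted p = 0.000617, adjusted p = 0.235 by edgeR's quasi-likelihood test, adjusted p = 2.45e-11 by DESeq2). It passed edgeR's filter through the MOCK libraries alone. Were 3 counts per library the limit of a count of 0, FZD6-206 would be at least 187-fold lower in CYGB. That limit takes no account of how reads were divided among isoforms, which was not tested. FZD6-204, annotated as a target of nonsense-mediated decay, had counts of 198, 162 and 91 in MOCK against 559, 814 and 522 in CYGB, a log2 fold change of 2.06 (standard error 0.41, unadjusted p = 0.00295, adjusted p = 0.498 by edgeR, adjusted p = 0.0034 by DESeq2). FZD6-201, annotated with 706 residues, was the most abundant in MOCK, with 1619, 1206 and 2395 counts, and had 739, 780 and 1491 counts in CYGB. FZD6-205, annotated with the same number of residues, had 2552 and 1834 counts in CYGB replicates 1 and 2 and 0 counts in the other 4 libraries, and did not pass edgeR's filter, while DESeq2 gave it an adjusted p of 0.0225. Of the windows of 150 bases, 0% in FZD6-206 and FZD6-201 and 3.81% in FZD6-205 are found in no other FZD6 transcript.

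FZD3 kept its sum while its counts moved between a pair of transcripts without regard to group. Its most abundant transcript was FZD3-201, with 80.1 to 87.9% of the counts, in MOCK replicates 1 and 2 and CYGB replicates 1 and 2, and FZD3-204, with 82.9 and 89.7%, in replicate 3 of both groups. Both are annotated with 666 residues. Summed, FZD3 averaged 60.4 ± 4.89 CPM in MOCK and 54.5 ± 9.35 CPM in CYGB.

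RNF43 and ZNRF3, the ubiquitin ligases that remove Frizzled from the cell surface, were among the steady genes. RNF43 (ENSG00000108375, chromosome 17 from 58352500 to 58417595) had 116, 125 and 136 CPM in MOCK and 140, 133 and 144 CPM in CYGB. All 3 CYGB libraries were above the mean of MOCK, 126 ± 9.94 CPM, but the groups overlapped, and the log2 fold change was 0.14 (95% interval -0.07 to 0.35). ZNRF3 had 35.6, 37.4 and 42.5 CPM in MOCK and 38.5, 37.0 and 41.0 CPM in CYGB, with a log2 fold change of 0.01 (95% interval -0.26 to 0.29).

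The Dishevelled genes, which relay the signal from Frizzled, did not move together. DVL1 was higher in every CYGB library, at 212, 201 and 204 CPM in MOCK and 213, 223 and 233 CPM in CYGB. The nearest libraries of the 2 groups lay 212.4 and 213.4 CPM high, and the log2 fold change was 0.12 (95% interval -0.05 to 0.28, unadjusted p = 0.137 by edgeR). DVL3 averaged 84.8 ± 4.24 CPM in MOCK and 84.5 ± 3.59 CPM in CYGB.

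DVL2 (ENSG00000004975, chromosome 17 from 7225341 to 7234545, minus strand) was lower in CYGB, with 3232, 4367 and 3223 counts in MOCK against 2788, 2869 and 3006 in CYGB. In CPM this was 68.4, 82.7 and 62.6 against 55.2, 56.5 and 57.2, with no overlap, and the log2 fold change was -0.34 (standard error 0.12, unadjusted p = 0.0323, adjusted p = 0.963 by edgeR's quasi-likelihood test). Part of this lay on 1 transcript, DVL2-209, with 0, 554 and 364 counts in MOCK and 0 counts in each CYGB library. DVL2-209 was picked after its values were seen, and leaving it out could lower MOCK libraries only. Without it the gene stood at 68.4, 72.2 and 55.5 CPM in MOCK and at 55.2, 56.5 and 57.2 CPM in CYGB, and the groups overlapped. DVL2-209 is annotated with 730 residues and the main transcript DVL2-201 with 736, and their coding sequences part after 412 bases (minus strand of chromosome 17, GRCh38; capitals begin at position 7230153 in DVL2-201 and at 7230135 in DVL2-209).
DVL2-201: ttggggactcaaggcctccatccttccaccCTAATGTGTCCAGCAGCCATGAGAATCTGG
DVL2-209: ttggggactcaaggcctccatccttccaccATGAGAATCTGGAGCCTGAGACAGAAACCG
The bases with which DVL2-209 goes on also stand near the end of the stretch of DVL2-201, so that the isoforms differ by a short run of bases.

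NKD1, which binds Dishevelled, damps the pathway and is itself a target, was steady. It had 51.2, 47.0 and 46.2 CPM in MOCK and 42.8, 48.9 and 51.3 CPM in CYGB (ENSG00000140807, chromosome 16). The groups overlapped, and the log2 fold change was -0.01 (standard error 0.11, 95% interval -0.28 to 0.25).

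Of the TCF and LEF factors, which bind DNA with β-catenin, TCF7L2 was lower in CYGB, TCF7L1 steady and TCF7 uneven. TCF7L2 (ENSG00000148737, chromosome 10 from 112950250 to 113167678, plus strand) had counts of 1621, 2506 and 2195 in MOCK against 1663, 1070 and 1671 in CYGB. In CPM the groups did not overlap, at 34.3, 47.4 and 42.6 against 32.9, 21.1 and 31.8, but MOCK replicate 1 lay close to the higher CYGB libraries. The log2 fold change was -0.54 (standard error 0.22, unadjusted p = 0.0473, adjusted p = 0.963 by edgeR's quasi-likelihood test), the lowest of the 35 genes. Here too 1 transcript was picked after its values were seen, and leaving it out lowered MOCK far more than CYGB. The transcript ENST00000466338, annotated with 116 residues, had counts of 1, 642 and 550 in MOCK against 1, 2 and 2 in CYGB (not past edgeR's filter, adjusted p = 0.00165 by DESeq2). Without it the gene stood at 34.3, 35.3 and 32.0 CPM in MOCK and 32.9, 21.0 and 31.8 CPM in CYGB, so that the groups overlapped and CYGB replicate 2 alone was low.

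TCF7L1 had 43.8, 44.0 and 45.3 CPM in MOCK and 44.5, 41.7 and 48.1 CPM in CYGB, with a log2 fold change of 0.01 (95% interval -0.22 to 0.25). TCF7, which is also a target of the pathway, had counts of 2137, 576 and 2081 in MOCK against 2301, 1039 and 956 in CYGB. Low and high libraries occurred in both groups, and the log2 fold change of -0.20 had a 95% interval of -1.66 to 1.27. TCF7-201, annotated with 384 residues, held 89.8% of the counts in MOCK replicate 1, whereas a transcript with a retained intron, TCF7-223, held 67.8% in MOCK replicate 3 and 63.7% in CYGB replicate 1.

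Genes that handle the ligand had log2 fold changes between 0.13 and 0.33, with overlap of the groups in all 3. PORCN, which adds the lipid that a Wnt ligand needs, lay at 5.27, 5.77 and 8.57 CPM in MOCK and 7.24, 8.19 and 9.25 CPM in CYGB, with the highest log2 fold change of the 35 genes, 0.33 (95% interval -0.24 to 0.90). NOTUM, which removes that lipid and is a target of the pathway, had 33.7, 29.6 and 31.7 CPM in MOCK and 33.6, 34.7 and 35.5 CPM in CYGB. MOCK replicate 1 and CYGB replicate 1 nearly coincided, and the log2 fold change of NOTUM was 0.13 (95% interval -0.12 to 0.38).

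WLS, the carrier that takes Wnt ligands to the cell surface, averaged 55.9 ± 16.0 CPM in MOCK and 64.9 ± 2.40 CPM in CYGB, with MOCK replicate 2 the lowest at 37.5 CPM. Its transcript WLS-205 had 1674 counts in MOCK replicate 1, 887 counts in CYGB replicate 3 and 0 counts in the other 4 libraries. The main transcript WLS-201 had counts of 978, 1798 and 3294 in MOCK against 2905, 3069 and 2487 in CYGB. WLS-205 (450 residues) leaves the coding sequence of WLS-201 (541 residues) after 106 bases (minus strand of chromosome 1, GRCh38; capitals begin at position 68194227 in WLS-201 and at 68159247 in WLS-205).
WLS-201: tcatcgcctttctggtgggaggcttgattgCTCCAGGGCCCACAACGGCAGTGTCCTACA
WLS-205: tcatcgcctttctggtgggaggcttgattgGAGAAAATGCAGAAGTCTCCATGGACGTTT
The libraries with WLS-205 were the same pair in which APC was high, a likeness noticed in the values and not tested.

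The growth genes MYC and CCND1 varied widely between libraries. MYC (ENSG00000136997, chromosome 8 from 127735434 to 127741434, plus strand), the transcription factor that drives growth, had counts of 3957, 4414 and 4198 in MOCK against 5853, 490 and 7116 in CYGB. As with AXIN2, CYGB replicates 1 and 3 lay above all MOCK libraries and CYGB replicate 2 far below. The log2 fold change was 0.07 (95% interval -1.92 to 2.06). Without CYGB replicate 2 it was 0.60, with an unadjusted p of 0.00206 and an adjusted p of 0.674 by edgeR's quasi-likelihood test, and its ratio then still lay under 2.

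Among the transcripts of MYC, MYC-207 passed the threshold and was lower in every CYGB library. It had counts of 2469, 2846 and 2317 in MOCK against 75, 97 and 358 in CYGB, a log2 fold change of -3.87 (standard error 0.69, unadjusted p = 0.0016, adjusted p = 0.373 by edgeR's quasi-likelihood test, adjusted p = 9.23e-05 by DESeq2). Its share of the gene's counts was 55.2 to 64.5% in MOCK and 1.28 to 19.8% in CYGB. MYC-206, annotated with the same 454 residues, had counts of 333, 249 and 268 in MOCK against 3556, 72 and 3084 in CYGB, so that the groups overlapped through CYGB replicate 2. MYC-205 (453 residues) had counts of 935, 1084 and 1299 in MOCK against 2004, 148 and 3308 in CYGB. No window of 150 bases (0%) in any of these 3 transcripts is found in it alone. How reads were divided among these isoforms is not given in the sources used here, and its part in these differences was not tested.

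**Figure D4:**
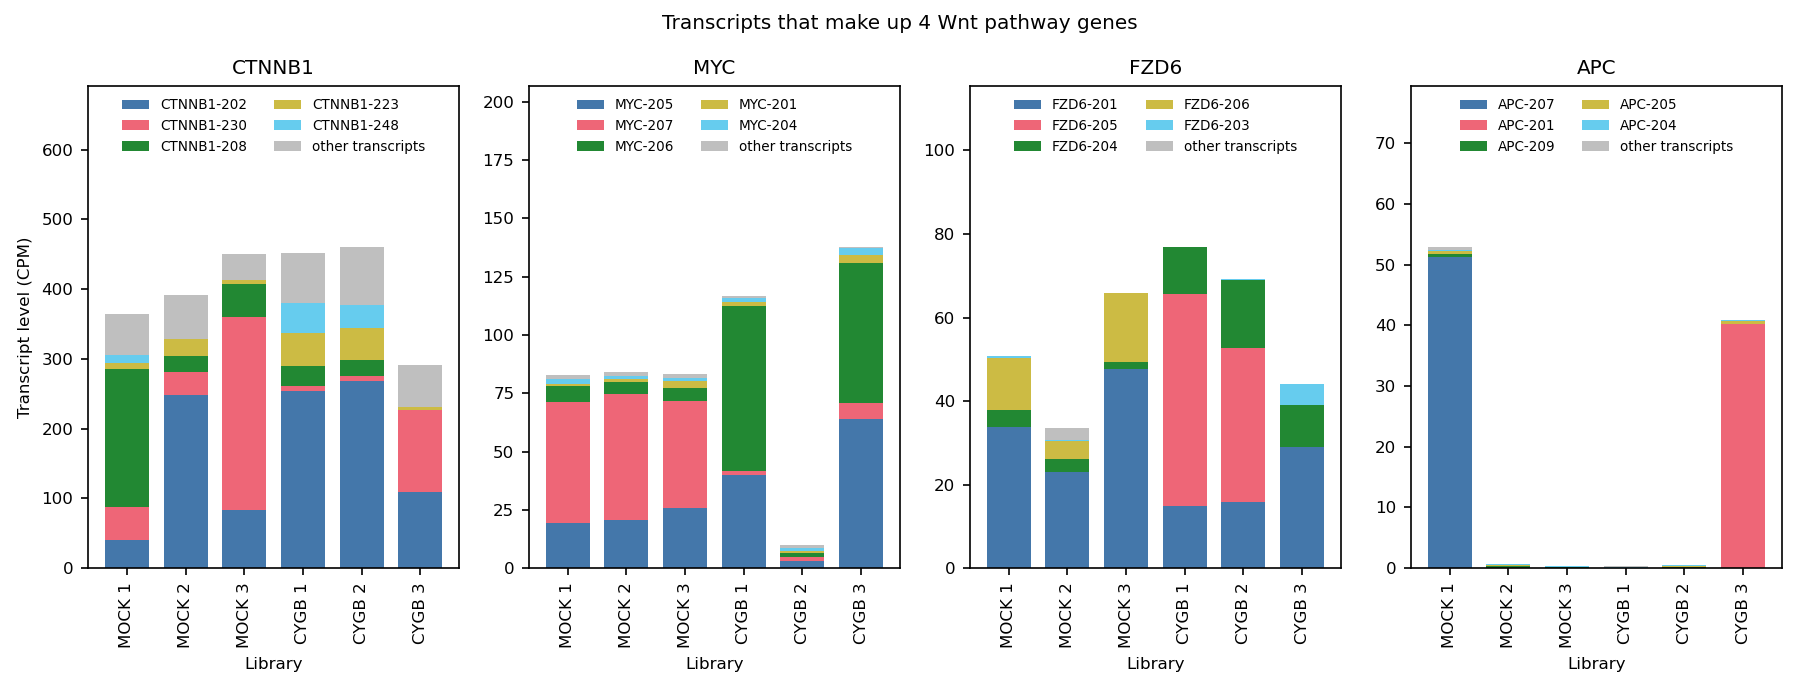
Stacked bars give the CPM of the 5 transcripts with the most counts and of all other transcripts of CTNNB1, MYC, FZD6 and APC in each library. MYC-207 holds most of the MYC counts in MOCK and few of them in CYGB, and FZD6-206 is at 0 in CYGB. The leading CTNNB1 transcript changes within both groups, and APC is high in 1 library of each group.

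CCND1, the gene for cyclin D1, varied within both groups. It had counts of 10810, 6299 and 12228 in MOCK against 6225, 13870 and 15394 in CYGB (ENSG00000110092, chromosome 11 from 69641087 to 69654474). MOCK replicate 2 and CYGB replicate 1 were low and nearly equal, and the log2 fold change was 0.24 (95% interval -0.74 to 1.21). CCND1-201, the transcript of 295 residues, led in 5 libraries with 66.3 to 87.7% of the counts, but in MOCK replicate 2 a transcript with a retained intron, CCND1-204, held 74.1%.

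Of the 327 transcripts of the set, 172 were tested and 5 passed the threshold, the 3 higher and 2 lower transcripts of CSNK1D, FZD6 and MYC named above. This was 2.91%, against 1.02% of all 66609 tested transcripts (0.540% higher and 0.482% lower). The CSNK1D transcripts and the lower FZD6 transcript were listed at 0 throughout 1 group and passed edgeR's filter through the other group alone. The 5 also came from only 3 genes, and transcripts of the same gene cannot be taken as independent. Whether the set exceeded the share of all transcripts was not tested, so no enrichment is read from it. With an adjusted p under 0.05 there were 0 by edgeR (0.0150% of all transcripts), 10 had an unadjusted p under 0.05 (3.78% of all), and DESeq2 placed 12 of 262 past the threshold (1.91% of all) and gave 7 an adjusted p under 0.05 (0.662% of all), namely the 5 above, FZD6-205 and ENST00000466338 of TCF7L2. A different transcript led in at least 1 library in 9 of the 28 genes with several transcripts and a mean of 10 CPM or more (32.1%), against 36.6% of 9292 such genes overall. The highest library exceeded the lowest by at least 4-fold in 4 of 33 genes with that mean (12.1%, against 8.44% of 9949 genes) and by under 1.5-fold in 21 (63.6%, against 59.1%).

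Other genes of the pathway did not pass the threshold either. From a list of 126 ligands, R-spondins, inhibitors, receptors, regulators, nuclear partners and targets, 125 were in the table and 99 were tested, and 0 passed the threshold by edgeR or DESeq2. Their median log2 fold change was 0.01, and the lowest adjusted p was 0.963 by edgeR. Of the 99, 16 had groups that did not overlap, 6 higher and 10 lower. Over all tested genes, for comparison, the groups did not overlap in 11.0%, with 5.72% higher and 5.31% lower. An unadjusted p under 0.05 by edgeR was reached by 5, against 4.54% of all tested genes, and these are named here after their values were seen. MMP7, a secreted protease and target, was the lower one, with 73, 73 and 64 counts in MOCK against 39, 53 and 48 in CYGB (log2 fold change -0.61). The 4 higher ones were CSNK2A2, a catalytic subunit of casein kinase 2 (log2 fold change 0.85), PPARD (0.53), the growth factor receptor gene MET (0.48) and NKD2, a relative of NKD1 (0.43).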

How the data were processed

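The authors deposited raw counts per transcript, not normalized, for 6 libraries of total RNA. The submitters' processing notes name HISAT2, HISAT, DESeq2 and hg19, but 99.6% of the transcripts matched to GENCODE 29 have its GRCh38 positions, which are used here; the counting tool is not given in the sources used here. Transcripts without a gene (18.6 to 19.5% of counts) were left out. Counts were tested per transcript and summed per gene with edgeR 4.0.16 in R 4.3.3 (filterByExpr, minimum count 10, TMM, glmQLFit, glmQLFTest, Benjamini-Hochberg adjustment) and with DESeq2 1.42.0 as an alternative, after tests on simulated data. CPM and TPM were computed here. Transcript types, residues and sequences are from GENCODE 29. Intervals cover the spread between libraries.

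All 38 genes were accounted for. Values per library were given for 17 genes named at the outset and for any other with an unadjusted p under 0.05 or groups without overlap. Transcripts were named if past the threshold or leading in only some libraries of a gene. Those of DVL2 and TCF7L2 were chosen after their values were seen. The genes and lists were chosen with earlier results of these data known. Libraries with the same replicate number did not deviate together (r of 0.016, 0.0049 and 0.025 across genes), so the numbers were not taken to pair them.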

Additional observations from a re-analysis of the deposited data

How the results depend on the processing

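The counts of 0 genes past the threshold and of 0 genes with an adjusted p under 0.05 among the 38 held under DESeq2, its size factors, no filter, a minimum mean of 50 counts, the replicate block, transcripts without a gene included, and each library left out. The median log2 fold change stayed between -0.04 and 0.02. The count of 5 transcripts became 12 with DESeq2, 3 at a minimum mean of 50 counts and 3 with the replicate block, of which 2 were among the 5; it ranged from 5 to 10 with 1 library left out, 10 without CYGB replicate 2 and 8 without MOCK replicate 1, MOCK replicate 3 or CYGB replicate 3. MYC-207 passed in 12 of 12 alternatives, FZD6-206 in 11, FZD6-204 and CSNK1D-213 in 10 and CSNK1D-223 in 7. At a minimum mean of 50 counts CSNK1D-213 and CSNK1D-223 were not tested, nor was CSNK1D-223 without CYGB replicate 3. Other Wnt genes past the threshold ranged from 0 to 1 with 1 library left out: CSNK2A2 without MOCK replicate 3 (1.26) and BCL9 without CYGB replicate 1 (-4.95). With the most abundant transcript of each gene alone, MET passed it (5.71). Of 18 tested genes followed through the alternatives (FZD6 and PORCN were not among them), 8 kept the sign of their log2 fold change throughout. With MYC the replicate block gave -0.49. The most abundant transcript alone gave 0.75 for CTNNB1 and -0.0025 for ZNRF3, and protein coding transcripts alone gave -0.10 for CSNK1D. Leaving out 1 library gave -0.13 to 0.17 for CTNNB1, -5.55 to 4.72 for APC, -0.54 to 0.40 for AXIN2, -0.042 to 0.089 for ZNRF3, -0.067 to 0.057 for NKD1, -0.40 to 0.60 for MYC, -0.021 to 0.53 for CCND1, -0.74 to 0.13 for TCF7, -0.039 to 0.059 for TCF7L1 and -0.020 to 0.074 for CSNK1D. The cause of these moves was not tested. No alternative brought an adjusted p of these 18 genes under 0.526.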

Other observations

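Transcripts of other Wnt genes also passed the threshold, 5 of 390 tested (1.28%, against 1.02% of all transcripts), in 5 genes, each with an adjusted p above 0.05 by edgeR's quasi-likelihood test. DESeq2 gave an adjusted p of 0.000238 for that of BCL9L, 0.000762 for MET, 0.00411 for CSNK1G3, 0.0173 for ROR1 and 0.196 for CSNK1G2. A transcript of MET, the receptor for hepatocyte growth factor, had counts of 113, 94 and 109 in MOCK against 9224, 7258 and 183 in CYGB, so that CYGB replicate 3 stood near MOCK. A transcript of BCL9L, a partner of β-catenin in the nucleus, had counts of 1290, 2082 and 1262 in MOCK against 486, 522 and 430 in CYGB, with no overlap. Transcripts of ROR1, a Wnt receptor (23, 17 and 8 against 57, 79 and 72 counts), and of CSNK1G2, a casein kinase 1 (9, 10 and 8 against 39, 28 and 19 counts), were higher in CYGB, and one of CSNK1G3 was lower (17, 22 and 18 against 1 count in each library).

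Where APC was low, assembled transcripts without a gene were searched for the opposite pattern, after the counts had been seen. Of 21225 such transcripts, 10 had it, and the one whose sum with APC varied least had counts of 1, 2651 and 2860 in MOCK against 2773, 2899 and 19 in CYGB. With it, APC came to 53.7, 50.8 and 55.9 CPM in MOCK and 55.2, 57.5 and 40.6 CPM in CYGB. The table gives it no position, it was picked for this pattern, and whether it belongs to APC was not tested. For AXIN2, MYC and TCF7 the number of transcripts with the opposite pattern was 104, 51 and 119. With the one picked in the same way, AXIN2 came to 47.1, 42.3 and 44.5 CPM in MOCK and 60.1, 56.1 and 52.5 CPM in CYGB. MYC came to 93.0, 94.2 and 84.5 CPM against 128, 95.6 and 136 CPM. TCF7 came to 47.2, 37.6 and 44.0 CPM against 46.3, 25.7 and 22.2 CPM. The sums of AXIN2 and MYC did not overlap, with CYGB higher, as groups did not overlap in 11.0% of all tested genes. For MYC the nearest libraries stood at 94.2 and 95.6 CPM. The choice itself raised CYGB replicate 2, where both genes were low, so no difference between groups is read from these sums. Each transcript was picked from many for its pattern, and whether any belongs to its gene was not tested.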
